A study of Mus musculus with 2 samples.

Results

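The 46 genes described here encode the machinery of G2 and mitosis, from cyclins and CDK1 to the kinesins and scaffold proteins of the midzone. They were taken by symbol from a list of names drawn up with earlier results of these data known, and all 46 were found among the 32285 genes of the files. Natural killer (NK) cells were isolated by flow cytometry from spleens of control mice, described as normal, and of mice under dietary restriction (DR). The transcript 3' ends of single cells were counted in droplets, with 1 library for each group. Every difference below is therefore between these libraries, without a replicate, and intervals are 95% intervals that cover counting error only. The labels name no strain, sex, age, diet, duration, number of mice, pooling or sorting gate, so none of these could be compared between the groups.

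Entry into mitosis is driven by CDK1 bound to cyclins A2 and B, and Aurora and Polo-like kinases then build the spindle and correct its attachments. The checkpoint holds the anaphase-promoting complex in check until all chromosomes are attached, after which cyclin B is destroyed and the cell divides. Most of these genes are transcribed periodically, kept off in resting cells by the DREAM complex and switched on in G2 by B-Myb and FOXM1. Both act with the MuvB core, which binds a promoter element called the cell cycle genes homology region (CHR), often a short distance from CCAAT boxes bound by NF-Y. In the spleen most NK cells rest, and division is known mainly from the less mature cells that carry CD27, while CD11b (Itgam) is gained with maturation.

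The promoters of the members shared these elements although the list was not drawn from sequence. RefSeq promoters of 300 bases, from 250 before to 50 after the start (build GRCm38.p6), were matched by symbol for 39 members, while Ccna2, Aurkb, Tpx2, Cdca2, Stmn1, Smc4 and Kif20a had no match. TTTGAA or TTCGAA, the letters of the CHR, occurred on either strand in 32 of the 39 (82.1%), against 21.7% of 27025 genes with a promoter entry and 16.5% of the 7348 of them that reached 5 counts per 1000000 UMIs (CPM) over all cells. Within the stretch from 50 bases before the start to its end, 28 of 39 members had a match (71.8%), against 6.12% of all genes. CCAAT, or ATTGG on the other strand, occurred in 31 of 39 (79.5%, all genes 41.1%), and both elements in 28 of 39 (71.8%, all genes 8.61%). A CHR match and a CCAAT match overlapped in 1 member promoter. TTCGAA reads the same on both strands, and a match is only a match of letters.

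Promoters of 5 members are shown, in lower case with CHR and CCAAT matches in capitals, read 5′ to 3′ along the gene. Hmmr (chr11:40733388-40733687, minus strand) and Bub1 (chr2:127831810-127832109, minus strand) were, among members with an entry, those whose UMIs lay most completely in cells with many other members. Racgap1 (chr15:99651607-99651906, minus strand) and Tubb4b (chr2:25224653-25224952, minus strand) were those spread most widely over cells. Nusap1 (chr2:119618048-119618347, plus strand) had the lowest ratio of DR over control among members from 5 CPM and holds neither element.
Hmmr: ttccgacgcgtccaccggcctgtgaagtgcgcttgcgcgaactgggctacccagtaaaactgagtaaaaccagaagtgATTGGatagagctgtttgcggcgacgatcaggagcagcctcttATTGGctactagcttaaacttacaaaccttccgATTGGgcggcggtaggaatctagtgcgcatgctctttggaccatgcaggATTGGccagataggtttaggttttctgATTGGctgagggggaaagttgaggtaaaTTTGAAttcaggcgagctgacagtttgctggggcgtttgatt
Bub1: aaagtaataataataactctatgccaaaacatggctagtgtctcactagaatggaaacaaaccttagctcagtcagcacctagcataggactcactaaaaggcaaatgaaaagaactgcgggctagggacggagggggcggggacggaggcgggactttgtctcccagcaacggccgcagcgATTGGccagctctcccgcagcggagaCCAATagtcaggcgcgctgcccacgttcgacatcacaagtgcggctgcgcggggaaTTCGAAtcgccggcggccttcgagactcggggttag
Racgap1: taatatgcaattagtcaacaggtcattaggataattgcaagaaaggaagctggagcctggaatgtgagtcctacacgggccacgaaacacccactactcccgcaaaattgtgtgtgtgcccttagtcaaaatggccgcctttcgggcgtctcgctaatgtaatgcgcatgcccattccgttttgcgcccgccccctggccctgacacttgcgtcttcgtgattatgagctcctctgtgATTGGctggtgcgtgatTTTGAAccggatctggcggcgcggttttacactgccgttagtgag
Tubb4b: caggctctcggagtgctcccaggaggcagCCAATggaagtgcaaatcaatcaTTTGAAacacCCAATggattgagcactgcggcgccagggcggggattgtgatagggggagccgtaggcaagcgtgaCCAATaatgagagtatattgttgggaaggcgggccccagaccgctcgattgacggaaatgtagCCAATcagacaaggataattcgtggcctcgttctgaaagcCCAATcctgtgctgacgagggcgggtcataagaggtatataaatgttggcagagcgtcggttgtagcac
Nusap1: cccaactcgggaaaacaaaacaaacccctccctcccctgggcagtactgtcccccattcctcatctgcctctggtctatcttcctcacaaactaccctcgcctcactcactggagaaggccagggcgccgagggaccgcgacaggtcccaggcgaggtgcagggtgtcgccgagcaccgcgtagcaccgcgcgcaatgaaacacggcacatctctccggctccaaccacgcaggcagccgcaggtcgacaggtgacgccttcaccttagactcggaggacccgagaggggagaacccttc
With the first transcribed base as position 1, the CHR match began at position 9 in Hmmr, 15 in Bub1 and 6 in Racgap1, and at -198 in Tubb4b. Hmmr and Tubb4b each had 5 CCAAT matches. The elements did not sort the members by how widely they were spread. A CHR match was present in 14 of 18 members (77.8%) with at least 80% of their UMIs in cells holding 10 or more other members, and in 9 of 10 (90%) of those with under 50%.

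The control library held 5702 barcodes with a median of 7151 UMIs (unique molecular identifiers, 1 per captured transcript), and the DR library 6287 with a median of 5782. After filters and doublet calls 5225 and 5785 cells were kept. The labelled cell type was checked against 10 NK markers, and cells in clusters passing for NK, called NK-like, numbered 4687 in control (89.7%) and 4496 in DR (77.7%). The clusters were made without the 46 genes and other cell cycle genes. Cycling cells still formed cluster 11 (57 control and 15 DR cells, median 22597 UMIs), with Top2a, Birc5 and Mki67 among its top 10 genes. It had 8 of 10 NK markers and counts as NK-like below. With clusters from all variable genes, cycling cells left the NK-like class, and the shares of cells with 10 or more members fell to 0% (last section). The largest share of control NK-like cells lay in cluster 0 (2169 control and 323 DR cells), led by Cma1 and Klra8 with Klrg1 and Cx3cr1 among its top 10 genes, and that of DR in cluster 4 (462 and 2082). The libraries shared 13 barcodes. Among DR NK-like cells, 3 that held many members went against their name: 2 cells with 85642 and 67344 UMIs had 0 UMIs of the NK receptor genes Ncr1 and Klrb1c but 26 and 31 UMIs of Cd3e and 40 each of Trac, both T cell genes. The other had 1 Ncr1 and 2 Klrb1c UMIs beside 12 of Cd34 and 15 of Hlf, genes of blood progenitors. Results are given with and without NK-like cells under 3 Ncr1 and Klrb1c UMIs per 10000, called the low cells (22 control and 18 DR cells, the 3 among them), a limit set after the data were seen.

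G2 and mitosis transcripts were lower in DR NK-like cells, and the difference varied widely between members. Summed over all 46, they made up 1961 CPM in control (1947 to 1975) against 1290 CPM in DR (1277 to 1304). Every member was lower in DR, with an interval of the ratio below 1. The same was found without the low cells. That step took out 3 DR and 0 control cells with 10 or more members, so it lowers DR further and is no separate support. Of 30 members that averaged 5 CPM or more, 23 were lower by 1.5-fold or more, 7 lay between the limits and 0 were higher, against 2.07% of 9007 genes lower and 1.43% higher. Without the low cells it was 24 of 30. Their median log2 ratio was -1.20, and -1.40 without the low cells, beside -0.04 over all genes. That filter favours members high in control: 17 members reached 5 CPM in the control library alone, and of the 19 that reached it in both libraries 12 were lower by 1.5-fold or more. The 16 members under the filter had log2 ratios from -2.66 to -1.02. In these sums, fewer cells with such transcripts and less RNA of them per cell cannot be told apart.

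**Figure D1:**
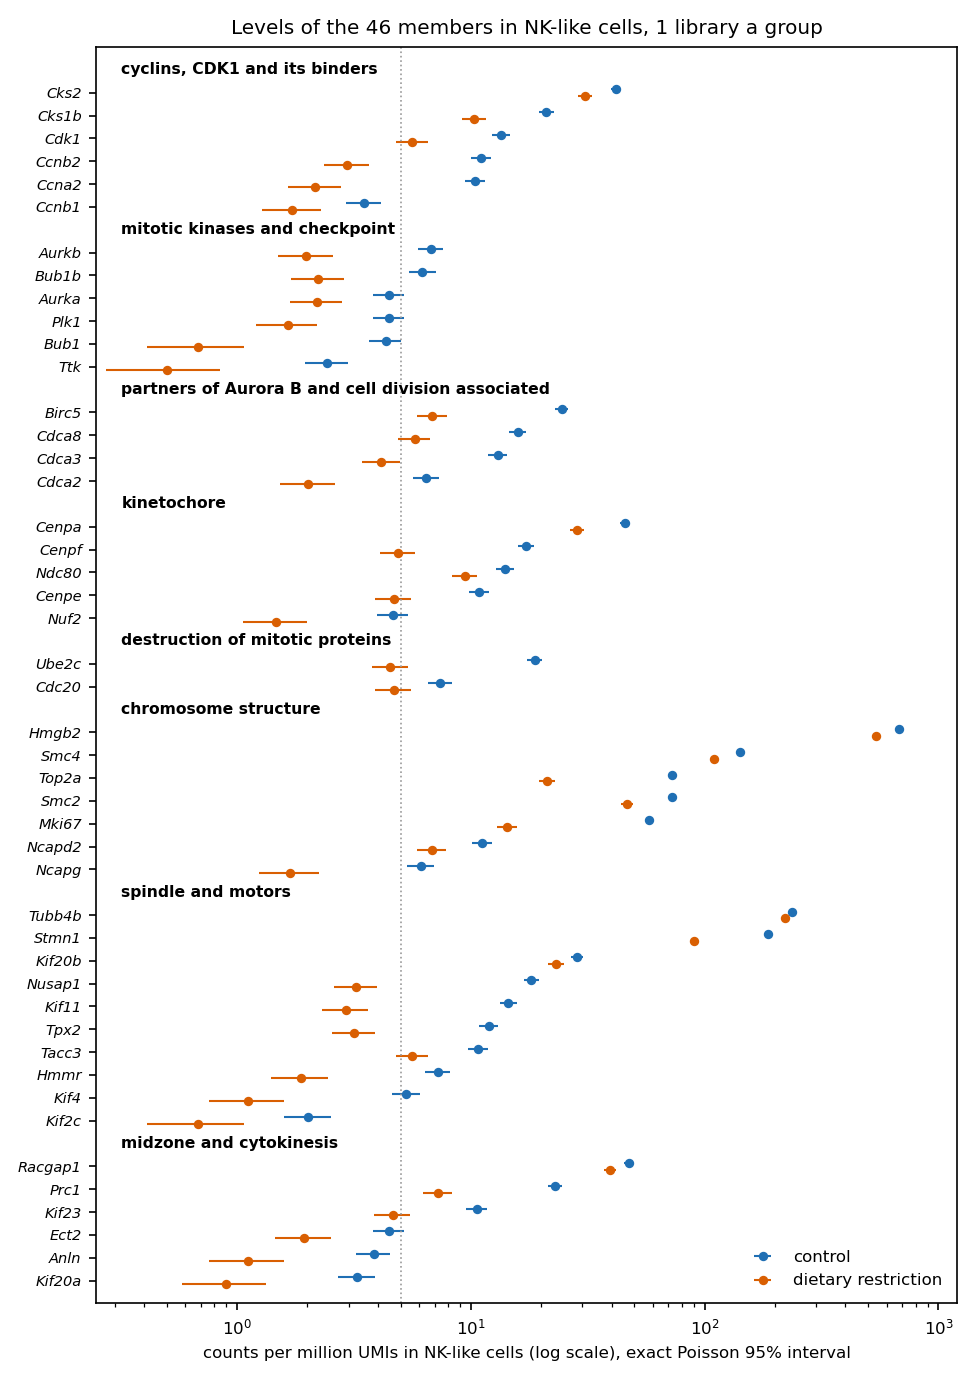
Level of each of the 46 members in NK-like cells, in CPM on a log axis, for the control and DR libraries, grouped by role, with exact Poisson 95% intervals and a dotted line at 5 CPM. All 46 points for DR lie left of control, by the most for Bub1 (4.32 and 0.683 CPM) and by the least for Tubb4b (237.4 and 221.4 CPM).

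Of the 6 genes of the CDK1 engine, 5 reached a mean of 5 CPM and 4 of them were lower by 1.5-fold or more, with a median log2 ratio of -1.26. Over all genes 2.07% were lower. Of the 4, Ccna2 and Ccnb2 reached 5 CPM in control alone, and the filter favours such members in every role group. Cdk1, the kinase that triggers mitosis (ENSMUSG00000019942, chromosome 10, 69335146 to 69352938, minus strand, mm10), was at 13.5 CPM in control (501 UMIs, 12.3 to 14.7) against 5.61 CPM in DR (156 UMIs, 4.76 to 6.56), a log2 ratio of -1.26 (-1.53 to -1.001). Ccna2, cyclin A2, which acts in S phase and G2, was at 10.4 and 2.16 CPM (log2 ratio -2.28, -2.69 to -1.88). Ccnb1, the main mitotic cyclin, stayed under the filter at 3.49 and 1.73 CPM (log2 ratio -1.02, -1.53 to -0.53), from 130 and 48 UMIs. Ccnb2 was at 11.1 and 2.95 CPM. The small CDK-binding proteins differed less: Cks2 was at 41.7 and 30.7 CPM (log2 ratio -0.44) and Cks1b at 21.0 and 10.3 CPM (log2 ratio -1.02). The cyclins had the lower ratios in this group, with Ccnb1 the exception, and Cks2 the highest.

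The mitotic kinases were low transcripts, and 0 of 6 reached a mean of 5 CPM. Plk1, which matures the spindle poles, was at 4.46 CPM in control (166 UMIs) against 1.65 CPM in DR (46 UMIs), a log2 ratio of -1.43 (-1.94 to -0.95). Aurka, the Aurora kinase of the poles, was at 4.46 and 2.19 CPM, and Aurkb, that of the centromere, at 6.74 and 1.98 CPM. Bub1, a checkpoint kinase at the kinetochore, had the lowest ratio of all 46 members, at 4.32 CPM (161 UMIs) and 0.683 CPM (19 UMIs), a log2 ratio of -2.66 with a wide interval (-3.43 to -1.97). Its partner Bub1b (BubR1) was at 6.20 and 2.23 CPM and Ttk (Mps1), which starts checkpoint signalling, at 2.42 and 0.503 CPM. None of these 6 had an interval reaching a ratio of 1, but the DR values rest on 14 to 62 UMIs.

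Birc5 (survivin), which carries Aurora B to the centromere, was at 24.4 CPM in control (909 UMIs, 22.9 to 26.1) against 6.83 CPM in DR (190 UMIs, 5.89 to 7.87), a log2 ratio of -1.84 (-2.07 to -1.61), or -2.65 without the low cells. Cdca8 (borealin), of the same complex, was at 15.8 and 5.75 CPM. Cdca3 was at 13 and 4.13 CPM and Cdca2, which targets a phosphatase to chromosomes, at 6.45 and 2.01 CPM. All 3 measured genes of this group were lower by 1.5-fold or more (all genes 2.07%), of which Cdca3 reached 5 CPM in control alone. At the kinetochore 3 of 4 measured genes were lower, of which Cenpf and Cenpe reached 5 CPM in control alone. Cenpa, the centromeric histone, was at 45.8 CPM in control (43.6 to 48.0) against 28.4 CPM in DR (26.5 to 30.5), a log2 ratio of -0.69 (-0.81 to -0.56). Cenpf was at 17.2 and 4.89 CPM, the motor gene Cenpe at 10.8 and 4.67 CPM, and Nuf2, under the filter, at 4.65 and 1.47 CPM. Ndc80, the microtubule-binding partner of Nuf2, differed less, at 14 and 9.45 CPM (log2 ratio -0.57), and lay between the limits. Ube2c and Cdc20 serve the anaphase-promoting complex, as its ubiquitin-conjugating enzyme and its activator. Ube2c was at 18.7 and 4.53 CPM (log2 ratio -2.05) and Cdc20 at 7.39 and 4.67 CPM (log2 ratio -0.66).

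Genes of chromosome structure had the most UMIs and spanned a wide range of ratios. Hmgb2, a DNA-bending chromatin protein, was at 677.5 CPM in control (669.2 to 685.9) against 543 CPM in DR (534.4 to 551.8), a log2 ratio of -0.32. Smc4 and Smc2, the core of condensin, were at 141.7 and 109.3 CPM (log2 ratio -0.37) and at 72.1 and 46.6 CPM (log2 ratio -0.63). Their condensin partners Ncapd2 and Ncapg were at 11.2 and 6.79 CPM and at 6.12 and 1.69 CPM. Top2a, the topoisomerase that untangles sister chromatids (ENSMUSG00000020914, chromosome 11, 98992943 to 99024189, minus strand), was at 72.4 CPM (2696 UMIs, 69.7 to 75.2) and 21.2 CPM (589 UMIs, 19.5 to 22.9), a log2 ratio of -1.77 (-1.91 to -1.65). Mki67, which coats mitotic chromosomes and is the usual marker of cycling cells (ENSMUSG00000031004, chromosome 7, 135689784 to 135716361, minus strand), was at 57.9 CPM (2156 UMIs, 55.5 to 60.4) and 14.3 CPM (397 UMIs, 12.9 to 15.7), a log2 ratio of -2.02 (-2.18 to -1.87). Of the DR UMIs of Mki67, 70 and 101 came from the 2 cells with Cd3e. Without the low cells its DR level was 7.86 CPM and the log2 ratio -2.88 (-3.09 to -2.68). Top2a was then at -2.10.

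Among spindle genes, 5 of 7 measured were lower by 1.5-fold or more (all genes 2.07%). Of the 5, Nusap1, Kif11 and Tpx2 reached 5 CPM in control alone. Stmn1 (stathmin), which destabilises microtubules, was at 185.8 CPM in control against 89.8 CPM in DR (log2 ratio -1.05, -1.12 to -0.98). Nusap1, a microtubule bundler at the chromosomes, was at 18.2 CPM (676 UMIs, 16.8 to 19.6) and 3.23 CPM (90 UMIs, 2.60 to 3.97), a log2 ratio of -2.49 (-2.82 to -2.17), the lowest among members from 5 CPM. Kif11 (Eg5), the kinesin that pushes spindle poles apart, followed at 14.5 and 2.91 CPM (log2 ratio -2.31, -2.67 to -1.98). Tpx2, the activator of Aurora A, was at 11.9 and 3.16 CPM and Tacc3, a spindle pole factor, at 10.7 and 5.61 CPM. Under the filter, Hmmr was at 7.23 and 1.87 CPM, the kinesin genes Kif4 at 5.29 and 1.11 CPM and Kif2c at 2.01 and 0.683 CPM. By contrast Tubb4b, a beta tubulin, was at 237.4 CPM (232.5 to 242.4) and 221.4 CPM (215.9 to 227), a log2 ratio of -0.10 (-0.15 to -0.05), and the kinesin gene Kif20b at 28.4 and 23.1 CPM (log2 ratio -0.30, -0.44 to -0.15).

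The genes of the midzone and cytokinesis divided in the same way. Racgap1, part of centralspindlin, was at 47.6 CPM in control (45.4 to 49.8) against 39.4 CPM in DR (37.1 to 41.8), a log2 ratio of -0.27 (-0.38 to -0.16). Its motor partner Kif23 was at 10.6 and 4.64 CPM (log2 ratio -1.19), and Prc1, which crosslinks midzone microtubules, at 22.8 and 7.22 CPM (log2 ratio -1.66). Ect2, Anln and Kif20a stayed under the filter, at 4.46 and 1.94, 3.84 and 1.11, and 3.25 and 0.898 CPM. How reads were split between Tubb4b, Hmgb2, Stmn1 or Cks1b and their near-identical relatives is not given in the sources used here, so the values of these members are less certain.

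Members with small differences were those also found in cells that held few other members. For each member the share of its UMIs in NK-like cells with at least 10 of the other members was taken, so that a member did not sort its own UMIs. The median over the 46 members was 83.8% in control and 60.0% in DR. All 269 control UMIs of Hmmr lay in such cells, and 98.1% of its DR UMIs. Bub1 was at 100% and 89.5%, Ccna2 at 97.9% and 96.7%, and Birc5 at 96.8% and 95.8%. Tubb4b was at 15.8% and 4.01%, Smc4 at 20.5% and 7.73%, and Racgap1 at 21.9% and 8.03%. More than 50% of the UMIs lay in such cells for 37 members in control and 26 in DR. A library with fewer such cells has lower shares by construction, and members lying mostly in them tend to lower ratios. The link between share and ratio is therefore no separate result, and the order of members within a library is the description here.

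**Figure D2:**
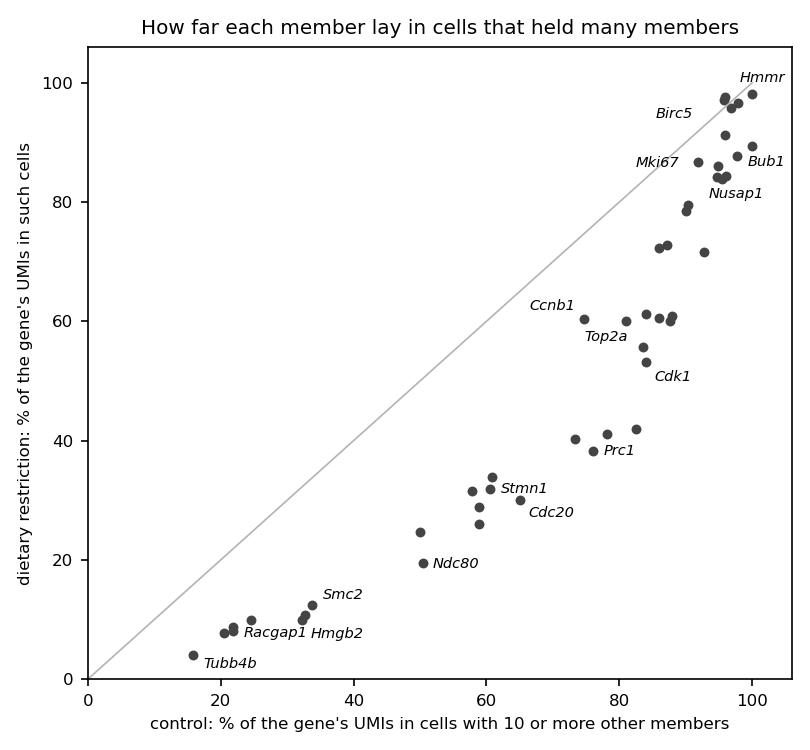
Percent of each member's UMIs lying in NK-like cells with 10 or more of the other members, in control (x axis) and DR (y axis), 1 point per member, with the line of equal shares. Hmmr sits at 100% and 98.1%, Tubb4b at 15.8% and 4.01%, and nearly all members lie below the line.

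Cells that held many members at once were fewer in the DR library. With all UMIs, 114 of 4687 control NK-like cells (2.43%) and 26 of 4496 DR cells (0.578%) had 10 or more of the 46 members. The exact Clopper-Pearson intervals were 2.01% to 2.91% and 0.378% to 0.846%. Deeper cells show more members, so each cell was also thinned to 3000 UMIs, leaving out 282 control and 227 DR cells that were shallower. Then 57 of 4405 control cells (1.29%, 0.981 to 1.67) and 12 of 4269 DR cells (0.281%, 0.145 to 0.491) had 10 or more. Without the low cells the DR share was 0.211% (0.0967 to 0.401) and the control share 1.30%. The libraries also differed, by less, in cells with few members. At that depth 26.1% of control (24.8 to 27.4) and 29.5% of DR cells (28.2 to 30.9) had 0 or 1 member, and 41.2% and 36.7% had 3 or more. With the limit at 5 members the shares were 5.90% (5.22 to 6.64) and 3.42% (2.90 to 4.01).

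**Figure D3:**
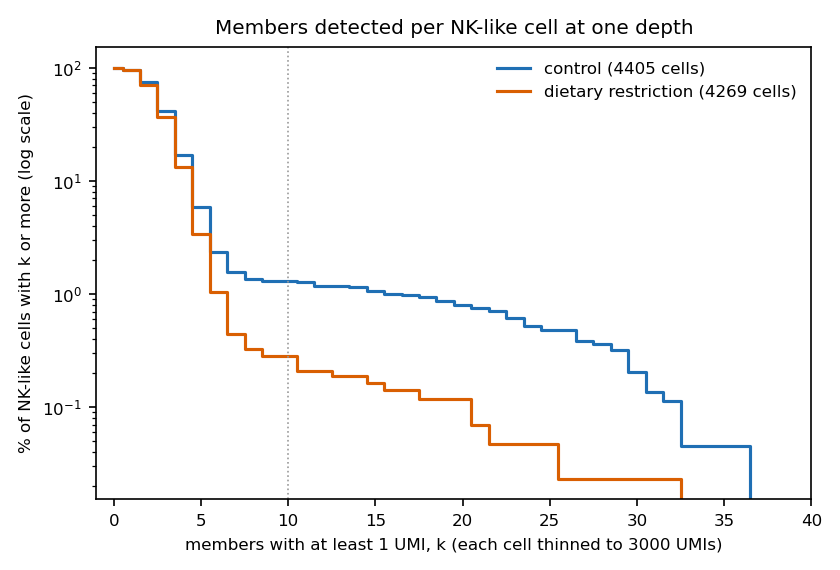
Percent of NK-like cells (log axis) with at least k of the 46 members detected, after thinning each cell to 3000 UMIs, for 4405 control and 4269 DR cells, with a dotted line at 10 members. The DR curve lies below control at 3 members (41.2% and 36.7%) and at 5 (5.90% and 3.42%), and by the larger ratio at 10 (1.29% and 0.281%).

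The difference in level lay mostly in the cells with 10 or more members. They held 33215 of 73012 member UMIs in control and 6128 of 35912 in DR. In the other NK-like cells the members made up 0.114% of UMIs in control and 0.109% in DR. Hmgb2 and Tubb4b gave 16811 and 7369 of the 39797 member UMIs there in control, and 13513 and 5889 of 29784 in DR. These percentages therefore say little about members at lower levels. Outside the cells with 10 or more members, 13 members still averaged 5 CPM, of which 0 were lower and 0 higher by 1.5-fold, with a median log2 ratio of -0.12. Of the 44 members with a UMI in each library there, 9 had an interval below a ratio of 1 and 1 above it. Cenpf was at 0.716 and 0.147 CPM, from 25 and 4 UMIs (log2 ratio -2.28, -4.27 to -0.75), and Birc5 at 0.658 and 0.294 CPM, from 23 and 8 UMIs (-1.16, -2.53 to 0.05, which includes no difference). Over all genes outside them the median was -0.04, with 1.32% of genes lower and 1.43% higher. There Hmgb2 was at 481.2 CPM in control against 496.3 CPM in DR (log2 ratio 0.04), Tubb4b at 210.9 and 216.3 CPM (0.04) and Cdk1 at 2.15 and 2.61 CPM (0.28). Cenpa was at 36.3 and 26.0 CPM (log2 ratio -0.48), and Mki67, now at 4.69 and 1.87 CPM, was at -1.33. The limit of 10 members removes the cells highest in these genes, so these values describe what was left and support no difference of their own.

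The 114 control and 26 DR cells were deep and held NK transcripts, though Ncr1 and Prf1 (perforin) were lower than in other NK-like cells. Their median depth was 18994 UMIs in control and 18081 in DR, against 7057 and 5457 in the other NK-like cells, and 5 control cells had under 2000 UMIs. Ncr1 was detected in all 114 control cells and in 24 of the 26 DR cells. Its level was 912.6 CPM in these control cells against 1242 CPM in the others, and 528.4 against 1072 CPM in DR. Prf1 was at 515.8 against 1253 CPM in control and at 362.8 against 975.4 CPM in DR. With the low ones left out, the DR cells with 10 or more members were at 746 CPM of Ncr1 and 506.7 CPM of Prf1. Of 7 T cell markers Cd3e, Cd8a, Cd8b1 and Cd4 were at 0 in the control cells, and also in the DR cells once the low ones were left out. The 7 summed were then at 300.4 CPM in control against 267.4 CPM in DR, and at 1489 CPM in DR with the low cells. Of 6 B cell markers, 5 had a UMI in the control cells (89 CPM summed, Fcmr at 0) and 4 in the DR cells (99.4 CPM, Cd79a and Ms4a1 at 0), and Ighm gave 171 of 204 and 41 of 60 of these UMIs. The part of other cells' RNA in the member levels was not tested. With called doublets kept, the shares at 3000 UMIs were 1.23% and 0.272%.

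Most cells rich in members also held transcripts of DNA replication. Of 37 S phase genes, the median number detected was 26 in the control and 28 in the DR cells with 10 or more members, against 4 and 3 in other NK-like cells. These counts were not thinned. The cells with 10 or more members were deeper (medians 18994 and 18081 against 7057 and 5457 UMIs), and the part of depth in the counts was not tested. Among the 60 control cells with 20 or more members, 54 had at least 10 S phase genes and 6 had fewer. In DR the counts were 10 and 3 of 13 cells. In 15 control and 4 DR cells at least 45 of the 46 members were detected. A further 23 control and 7 DR cells had 10 to 19 members with 20 or more S phase genes. Cells with many members and few S phase genes were a minority in both libraries, and with 13 DR cells no difference in this split can be read.

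**Figure D4:**
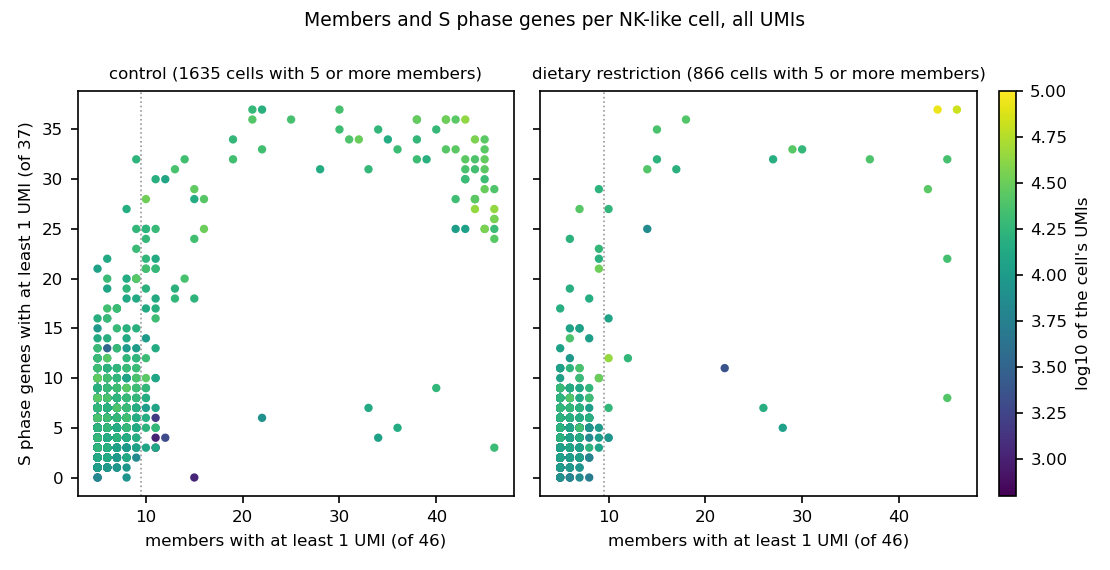
Members (x axis, of 46) against S phase genes (y axis, of 37) with at least 1 UMI in each NK-like cell with 5 or more members, unthinned, coloured by the log10 of the cell's UMIs, for 1635 control and 866 DR cells. To the right of 20 members most cells have over 20 S phase genes, and 6 control and 3 DR cells lie under 10; the yellow DR points at upper right are the cells with 85642 and 67344 UMIs.

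Across NK stages, set by at least 1 UMI of Cd27 and of Itgam, the members were highest in control cells with Cd27. In DR their sum was highest with Cd27 only, and that rested in part on the low cells. Summed over the 46 in control, they were at 2471 CPM in cells with Cd27 only (2433 to 2509), 2406 CPM in cells with both (2377 to 2436), 1597 CPM in cells with Itgam only (1577 to 1617) and 1410 CPM with neither (1374 to 1446). In DR the values were 1485 (1456 to 1513), 1218, 1287 and 1133 CPM. The control stages with Cd27 stood apart from those without, whereas the DR values lay closer together. Without the low cells Cd27-only DR cells were at 1308 CPM (1281 to 1335) and Itgam-only cells at 1287 CPM (1263 to 1312), intervals that overlap. The sum in cells with both genes was lower than either, at 1149 CPM (1125 to 1174). Hmgb2 (534.8 and 560 CPM) and Tubb4b (215.9 and 220.3 CPM) made up most of the sums in Cd27-only and Itgam-only cells. Near-equal sums therefore say little about members at lower levels, such as Cenpf at 11.4 and 2.02 CPM, and counts over members are given below. Mki67 was at 89.7, 86.1 and 36.1 CPM in control cells with Cd27 only, both, and Itgam only. In DR it was at 31.9, 12.4 and 5.10 CPM, and without the low cells at 16.5, 2.78 and 5.10 CPM. Tubb4b did not follow this order, at 212.7, 254.6 and 235.2 CPM in control.

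Counted over members, 25 of 36 from 5 CPM were higher by 1.5-fold or more in Cd27-only than in Itgam-only control cells and 0 were lower (median log2 ratio 1.31; 7.85% of all genes were higher). In DR 13 of 25 were higher (median 0.70, all genes 4.79%), and 9 of 23 without the low cells (median 0.33, all genes 4.51%), with 0 lower in either count. The 5 CPM limit was set on the mean of both stages, so members high in either stage were favoured in these counts and medians. The difference between the libraries in this contrast was not tested. The share of cells with 10 or more members, with all UMIs, was 4.37% in control cells with Cd27 only (29 of 664), 4.58% with both (50 of 1092), 1.17% with Itgam only (26 of 2230) and 1.28% with neither (9 of 701). The shares in control cells with Cd27 lay above those of Itgam-only cells, with intervals that did not overlap. In DR the shares were 1.30% (12 of 926, or 10 of 922 without the low cells), 0.407% (4 of 984), 0.447% (7 of 1567) and 0.294% (3 of 1019). With all UMIs, the DR share lay below control at every stage, and for Cd27 only and for both the intervals were apart. Control NK-like cells were deeper, with a median of 7119 UMIs against 5468 in DR. At 3000 UMIs, given below, the DR shares were also lower, but those of the stages with Cd27 rest on few cells.

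The order of the stages was not stable to depth. A shallow cell can miss Cd27 or Itgam, and the median depth ran from 9075 UMIs in Cd27-only to 5819 in control cells with neither. At 3000 UMIs, with the stage also read at that depth, the control shares were 1.86% (10 of 539), 0.639% (2 of 313), 0.551% (10 of 1814) and 2.01% (35 of 1739), in the same order. The DR shares were 0.395%, 0.270%, 0.0740% and 0.392%, from 3, 1, 1 and 7 cells. Cells with neither gene then held the most cells with many members, and no order of stages is read from these shares. Cells rich in members were deep, so a UMI of Cd27 and of Itgam was more likely to be caught in them, and the part of this in the order above was not tested.

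**Figure D5:**
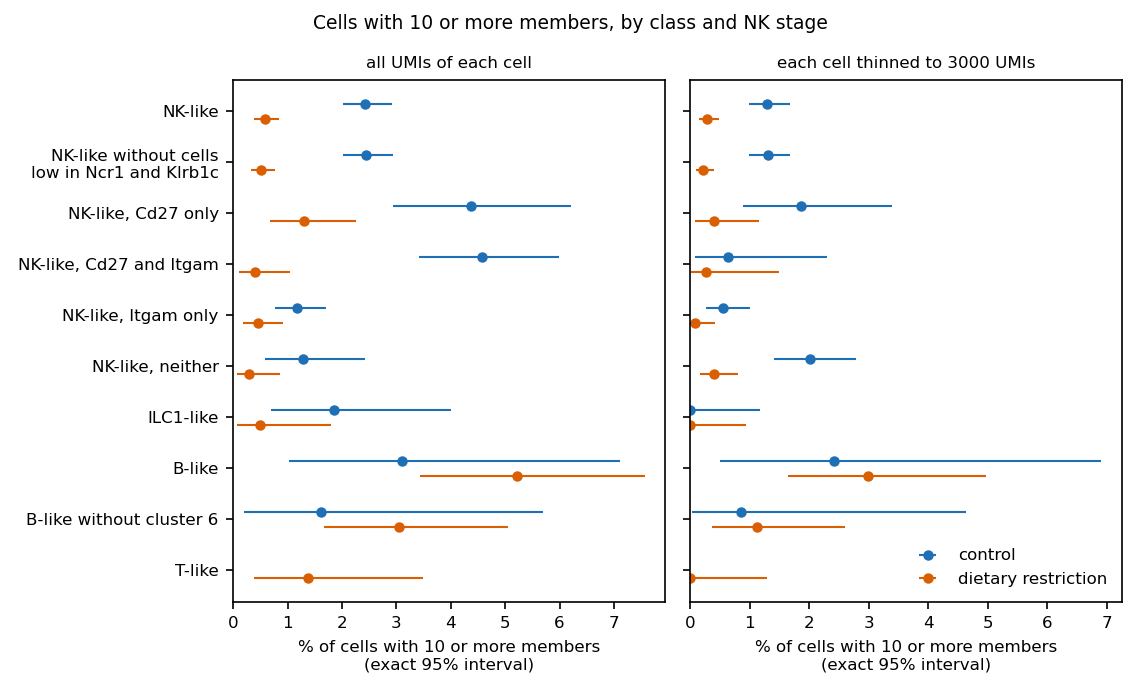
Percent of cells with 10 or more of the 46 members, with exact 95% intervals, by class and NK stage, for all UMIs (left) and after thinning to 3000 UMIs (right), control and DR, leaving out classes with under 50 cells. NK-like cells are at 2.43% and 0.578% on the left and 1.29% and 0.281% on the right, and B-like DR cells lie above B-like control cells with overlapping intervals.

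ILC1-like cells, innate lymphocytes related to NK cells and named from Il7r, Cxcr6 and Tmem176a, had lower summed levels of the members than NK-like cells. The 46 summed to 1115 CPM in 322 control cells (1077 to 1155) and 948 CPM in 399 DR cells (914 to 984), below NK-like cells of the same library. Mki67 was at 11.2 and 4.01 CPM, from 32 and 12 UMIs. Against NK-like cells, 22 of 29 members were lower by 1.5-fold or more in control (median log2 ratio -2.02, all genes 6.64%) and 8 of 15 in DR (median -0.63, all genes 6.08%), or 7 of 15 without the low NK-like cells (all genes 6.04%). The 5 CPM limit was set on the mean of both classes, so members high in NK-like cells were favoured in these counts and medians. With all UMIs, 6 of 322 control (1.86%) and 2 of 399 DR cells (0.501%) had 10 or more members, and each of these had at least 20 S phase genes. These shares were not far below the 2.43% and 0.578% of NK-like cells. At 3000 UMIs it was 0 of 314 and 0 of 393, which allows shares of up to 0.955% and 0.763%. The NK-like share at that depth was 1.29% in control, and 0.281% in DR, which lies within the DR limit. Levels of single members here rest on few UMIs.

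In B-like cells, which carried Cd79a and Ms4a1, the members stood the other way round between the libraries. They summed to 1027 CPM in 161 control cells (977 to 1080) and 1411 CPM in 498 DR cells (1377 to 1447). A few cells held much of these sums: 5 control cells with 10 or more members held 656 of 1532 member UMIs (524 in 1 cell), and 26 such DR cells held 4018 of 6293. In the remaining B-like cells the sums were 599 CPM in control (560 to 640) and 575 CPM in DR (551 to 599). Mki67 was at 24.8 CPM in control (37 UMIs, 17.5 to 34.2) against 75.6 CPM in DR (337 UMIs, 67.7 to 84.1), and Top2a at 24.8 and 59.9 CPM. Against NK-like cells, 16 of 34 members were lower by 1.5-fold or more in control B-like cells and 3 higher, where 32.6% of all genes were lower and 15.3% higher. In DR 25 of 33 were higher and 2 lower, where 13.7% of all genes were higher and 28.2% lower. The median log2 ratios were -0.53 and 1.49. The lower NK-like levels of DR enter the second. Here too the 5 CPM limit was set on the mean of both classes, which favours members high in either.

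A shallow B-like cluster, cluster 6, was rich in members in DR, less so in control. Its 37 control and 38 DR cells had median depths of 1608 and 3144 UMIs and a median of 0.218% and 0.202% mitochondrial UMIs. Of these, 3 control cells and 12 DR cells (31.6% of DR) had 10 or more members. The median number of members was 1 in control and 5 in DR, against 3 in the other B-like cells of each library. Without it the 46 summed to 970 CPM in control against 1279 CPM in DR B-like cells. Mki67 was then at 26.1 and 76.6 CPM and Birc5 at 4.93 and 15.1 CPM. Against NK-like cells 17 of 33 members were then lower in control (all genes 31.8%), and 21 of 29 higher in DR with the low NK-like cells also left out (all genes 13.8%). At 3000 UMIs, 3 of 124 control (2.42%, 0.502 to 6.91) and 14 of 468 DR B-like cells (2.99%, 1.64 to 4.97) had 10 or more members, or 1 of 118 (0.847%) and 5 of 446 (1.12%) without cluster 6. Thinned shares in B-like cells did not differ beyond these intervals. T-like cells, 290 in DR and 3 in control, had 10 or more members in 4 DR cells (1.38%, 0.377 to 3.49) with all UMIs and in 0 of 285 at 3000 UMIs.

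Other genes of the pathway, in lists that hold no member, followed the members in part. Of 35 further mitosis genes found, 18 reached 5 CPM and 10 were lower by 1.5-fold or more, with a median log2 ratio of -0.68. Those under the filter were all lower with intervals below a ratio of 1, with log2 ratios from -2.50 (Espl1) to -0.85 (Sgo2a). Kif22, a chromosome-arm kinesin, was at 8.51 and 2.69 CPM and Spc25, of the Ndc80 complex, at 10.7 and 3.63 CPM, whereas Pttg1 (securin) was at 64.2 and 69.9 CPM. Of 30 measured S phase genes, 8 were lower (median -0.35): Pclaf was at 41.0 and 12.2 CPM and Rrm2, of ribonucleotide reductase, at 18.8 and 5.68 CPM, but the clamp gene Pcna was at 103.4 and 84.9 CPM. Among 8 measured regulators, which include subunits of DREAM and MuvB, 0 passed the limit (median -0.14), with Rbl2 (p130) at 123.8 and 112.8 CPM. Of 9 measured CDK inhibitors, D cyclins and antiproliferative genes 1 did, Ccnd2, which links growth signals to the cell cycle, at 683 and 411 CPM (log2 ratio -0.73). The inhibitor gene Cdkn1b (p27) was at 159 and 171 CPM. Under the filter, the remaining 4 regulators were all lower with intervals below a ratio of 1: Foxm1 was at 3.12 and 1.33 CPM (log2 ratio -1.23), Mybl2 (B-Myb) at 1.58 and 0.898 CPM (-0.82), and the repressor genes E2f7 at 1.93 and 0.287 CPM (-2.75) and E2f8 at 4.24 and 0.826 CPM (-2.36). These counts stand against the same 2.07% of all genes lower.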

How the data were processed

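Splenic NK cells of 1 control and 1 DR library were analysed. The authors deposited whole-number UMI counts per gene and barcode, not normalized. The file headers name Cell Ranger 5.0.1 and the submitters' processing notes Cell Ranger 2.1.1 with mm10, a conflict the files do not settle. The number of mice is not given in the sources used here.

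Barcodes under 500 genes or over 10% mitochondrial UMIs were removed (215 control and 167 DR). Scrublet in scanpy 1.11.5 scored doublets, and the highest scores were called at 0.8% per 1000 cells with ties (262 and 335 cells). Both libraries were clustered together (2000 variable genes without cell cycle genes, 30 components, 15 neighbours, Leiden resolution 0.6) and named from marker lists, and 1 control and 2 DR NK-like cells with 1% or more UMIs of other lineages were left out. UMIs were summed per class and library (37231334 and 27830719 in NK-like cells) and given as CPM with exact Poisson intervals, ratios with exact conditional binomial intervals and shares with Clopper-Pearson intervals, at 95%; 3 counts stand as the limit of a count of 0. With 1 library a group no test was run, and the functions were tested on simulated data. Genes with a mean from 5 CPM were counted at a 1.5-fold limit.

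Full values were given for the 12 members with the most UMIs, the 3 highest and lowest ratios, the 3 most and least concentrated members, and Mki67, Top2a, Cdk1, Ccnb1 and Plk1. The members and lists were chosen with earlier results of these data known. Coordinates are from GENCODE M21 (GRCm38, mm10).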

Additional observations from a re-analysis of the deposited data

Results flagged for a closer look

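B-like and NK-like cells stood in opposite directions. At 3000 UMIs the percent of B-like cells with 10 or more members was higher in DR than in control by 0.57 percentage points (2.99% and 2.42%), while in NK-like cells it was lower (0.281% and 1.29%). The difference between the classes was not tested, the B-like intervals overlap, and 9 of the 14 DR and 2 of the 3 control B-like cells lay in the shallow cluster 6.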

How the results depend on the processing

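No paired analysis was possible because each group has 1 library, and no replicate could be left out. The median log2 ratio of the members and the number lower by 1.5-fold kept their direction and stayed near -1.20 and 23 under median-of-ratios scaling, a total without mitochondrial and ribosomal genes, doublets kept, other-lineage cells kept, single-cell gating and, chosen after seeing the data, without the low cells (medians -1.43 to -1.14, counts 22 to 24), and 18 members passed a 2-fold limit. Leaving out the low cells took cells with 10 or more members from DR alone, so that setting lowers DR further and is no separate support. From 20 CPM the median was -0.44 with 5 lower, and with a UMI in each library -1.52 with 39 lower, since the filter sets which members count. With clusters from all variable genes the median was -0.14 with 0 lower, and the shares of cells with 10 or more members were 0% and 0%, because a cluster of cycling cells of mixed lineage then took those cells out of the NK-like class; without cells with 10 or more members the median was -0.12 with 0 lower. Under these last 2 settings Cdk1 turned to 0.21 and 0.28 and Plk1 to 0.24 and 0.21. The shares at 3000 UMIs were 5.90% and 3.42% at 5 or more members, 2.43% and 0.578% without thinning, and 0.519% in DR at 5000 UMIs; the DR share stayed below control in each. With 5 or more others as the limit, the median share of a member's UMIs was 91.2% and 68.4%. Single-cell gating moved Mki67 to -3.51 and Birc5 to -3.14. Depth limits the kinases, with 14 to 62 DR UMIs each, and the thinned DR stages, with 1 to 7 cells.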
